A study of Homo sapiens with 30 samples.

Results

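Tubulin isotypes are the closely related alpha- and beta-tubulin genes whose products pair into the building block of microtubules. The 10 genes described here were chosen by symbol as the alpha- and beta-tubulins of interest in a table of 20114 genes: the 6 beta-tubulins TUBB, TUBB2A, TUBB2B, TUBB3, TUBB4B and TUBB6 and the 4 alpha-tubulins TUBA1A, TUBA1B, TUBA1C and TUBA4A. All 10 were in the table, and all 10 were among the 12743 genes with at least 1 CPM (read counts scaled to a common library size) in at least 2 libraries.

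Poly-A RNA was sequenced from SUM190, an established line of inflammatory breast cancer, in doxorubicin-resistant cells (3 groups), paclitaxel-resistant cells (5 groups) and parental cells (7 groups), with 2 libraries in each of the 15 groups. Cells were left for 24 h after plating and then treated for 72 h. The doxorubicin-resistant line was given the vehicle DMSO, 350 nM doxorubicin or 1 µM doxorubicin. The 5 groups of the paclitaxel-resistant line were DMSO, 6.5 nM paclitaxel, 10 nM paclitaxel, ruxolitinib by itself, and ruxolitinib added to 6.5 nM paclitaxel. The 7 parental groups were DMSO, 2.5 nM paclitaxel, 10 nM paclitaxel, 65 nM doxorubicin, 1 µM doxorubicin, ruxolitinib by itself, and ruxolitinib added to 2.5 nM paclitaxel. The labels give ruxolitinib, which blocks JAK1 and JAK2 kinase activity, as 15 µM alone and as 15 nM in both combinations. They do not say how the resistant lines were derived or whether replicates were separate cultures, so each p-value reflects library-to-library spread alone.

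Microtubules are polymers of alpha- and beta-tubulin that carry intracellular transport and form the mitotic spindle. Paclitaxel binds the beta subunit inside the polymer and stabilises it, while doxorubicin acts on topoisomerase II and DNA; high TUBB3, the beta-tubulin typical of neurons, has been linked to poor response to taxanes in several tumour types. Cells also tune tubulin mRNA to the amount of free tubulin dimer: when dimer is in excess, TTC5 recognises the first residues of the tubulin chain as it leaves the ribosome, and with SCAPER and the CCR4-NOT deadenylase brings about decay of the mRNA being translated.

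The first 4 codons encode that recognised start, so the first 30 coding bases of each gene are shown, read 5′ to 3′ from GENCODE v29 transcripts (GRCh38), with the first 4 codons in capitals.
TUBB: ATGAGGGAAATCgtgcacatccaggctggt
TUBB2A: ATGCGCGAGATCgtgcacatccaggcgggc
TUBB2B: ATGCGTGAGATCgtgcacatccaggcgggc
TUBB3: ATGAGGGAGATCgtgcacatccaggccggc
TUBB4B: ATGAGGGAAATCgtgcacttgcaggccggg
TUBB6: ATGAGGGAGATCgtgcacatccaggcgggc
TUBA1A: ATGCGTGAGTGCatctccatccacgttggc
TUBA1B: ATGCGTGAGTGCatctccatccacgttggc
TUBA1C: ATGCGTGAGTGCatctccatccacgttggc
TUBA4A: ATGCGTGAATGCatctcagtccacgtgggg

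The 6 beta genes used 4 different 12-base starts and the 4 alpha genes used 2. TUBB and TUBB4B had the same first 12 bases, as did TUBB3 and TUBB6. TUBA1A, TUBA1B and TUBA1C were identical over all 30 bases.

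Several members resemble each other closely enough to share reads, which bears on every value that follows. Windows of 50 bases were cut from the principal transcript of each gene only. Of its windows, TUBB2A shared 60.3% with TUBB2B, and TUBB2B shared 47.3% with TUBB2A. For TUBA1B 56.6% of windows occurred in another member, for TUBA1A 40.9% and for TUBA1C 25.1%. TUBB3 shared only 8.66% of windows with other members, but 89.4% lay in AC092143.1, a readthrough gene on the same strand. TUBB shared 18.2% of windows, mostly with the pseudogene TUBBP1, while TUBB4B (9.89%), TUBA4A (5.25%) and TUBB6 (0.993%) were the most distinct. How such reads were assigned is not given in the sources used here, so the split within TUBB2A and TUBB2B, within the TUBA1 genes, and between TUBB3 and the readthrough gene is uncertain. TUBA1A and TUBA1C overlap on opposite strands, as do TUBA4A and STK16, TUBB6 and AFG3L2, and TUBB2B and PSMG4.

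On GRCh38, TUBB lies on the plus strand of chromosome 6 (chr6:30720201-30725426), and TUBB2A (chr6:3153669-3157526) and TUBB2B (chr6:3224261-3231730) are neighbours on its minus strand. TUBB3 lies on chromosome 16 (chr16:89921392-89938761), TUBB4B on chromosome 9 (chr9:137241213-137243707) and TUBB6 on chromosome 18 (chr18:12307669-12344320), all on the plus strand. The genes TUBA1B (chr12:49127782-49131397, minus), TUBA1A (chr12:49184796-49189324, minus) and TUBA1C (chr12:49188736-49274603, plus) form a cluster on chromosome 12, and TUBA4A is on the minus strand of chromosome 2 (chr2:219249711-219278170).

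Library depth was 18443749 to 32669995 reads in genes, and 3 reads, the limit a count of 0 allows, corresponded to 0.0947 to 0.163 CPM; only counting error is covered by that limit. All 8 epithelial and HER2 markers were present in every library, with ERBB2 at 1516 to 3736 CPM. Of 10 neuronal markers in the table, 8 were at 0 in some library; their summed level was 0.516 to 4.00 CPM. The 11 markers of fibroblasts, endothelium and immune cells summed to 18.1 to 48.8 CPM, with 5 of them at 0 in some library. In bulk RNA, fewer cells expressing a gene and less of its RNA per cell cannot be told apart. The parental DMSO libraries differed from each other along transcript GC content (Spearman's rho across genes = 0.783 for replicate 2 minus replicate 1), and they are the reference of many comparisons. The same measure was -0.717 in parental cells at 1 µM doxorubicin, 0.673 in parental cells on the combination, -0.670 in doxorubicin-resistant cells at 350 nM, -0.662 in parental cells at 10 nM paclitaxel and 0.550 in parental cells at 65 nM doxorubicin; in the other groups it lay between -0.261 and 0.386. Its part in the tubulin values was not tested beyond the GC content and length correction.

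Per kilobase of transcript, a pair of beta-tubulins and 1 alpha-tubulin made up most of the tubulin mRNA. In parental cells in DMSO, TUBB supplied 63.5% ± 0.617 and TUBB4B 32.2% ± 0.633 of beta-tubulin CPM per kb, with 2.12% ± 0.0145 from TUBB3 and 1.60% ± 0.0396 from TUBB2A (mean ± SD, n = 2). TUBB6 added 0.522% and TUBB2B 0.0620%. Both TUBB and TUBB4B are broadly expressed isotypes. Among the alpha-tubulins, TUBA1B, the ubiquitous isotype, supplied between 70.5% and 81.3% of CPM per kb across the 15 groups, TUBA1C 11.4% to 16.2%, TUBA4A 5.04% to 11.3% and TUBA1A, best known from developing neurons, 1.16% to 3.41%.

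The make-up of beta-tubulin mRNA moved most in parental cells at 1 µM doxorubicin. There TUBB supplied 31.1% ± 1.94, TUBB4B 47.5% ± 0.406, TUBB3 13.6% ± 0.731 and TUBB2A 6.26% ± 0.526 of beta-tubulin CPM per kb. Doxorubicin-resistant cells at the same dose had 55.2% ± 0.0974 from TUBB and 2.31% ± 0.105 from TUBB3, against 63.8% ± 0.110 from TUBB and 1.36% ± 0.0175 from TUBB3 in doxorubicin-resistant cells in DMSO. Summed beta-tubulin was 888 ± 65.6 CPM in parental cells at 1 µM doxorubicin, against 1763 ± 224 CPM in parental cells in DMSO. Summed alpha-tubulin was 2525 ± 188 CPM in parental cells at 1 µM doxorubicin against 2559.7 ± 219 CPM in parental cells in DMSO, within the spread of the libraries.

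**Figure D1:**
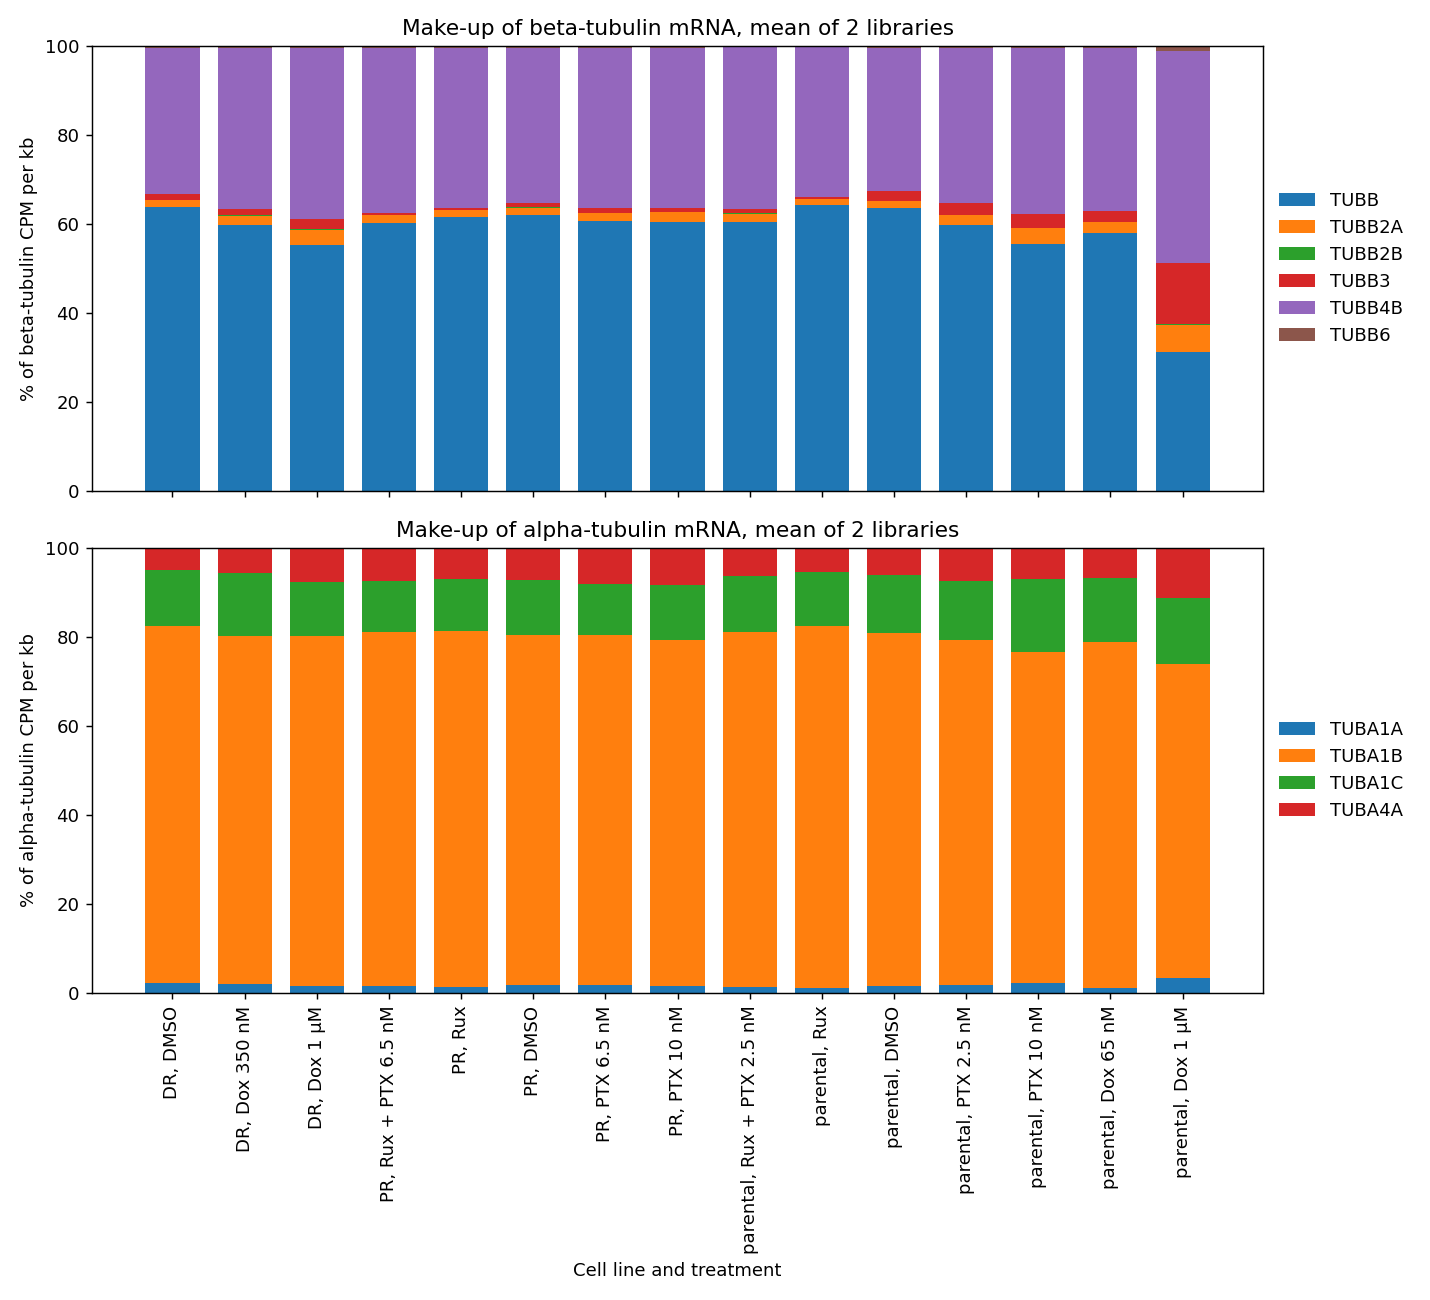
Share (%) of each gene in the beta-tubulin (top) and alpha-tubulin (bottom) CPM per kb of transcript, as the mean of 2 libraries in each of 15 groups (DR, doxorubicin-resistant; PR, paclitaxel-resistant; PTX, paclitaxel; Dox, doxorubicin; Rux, ruxolitinib). TUBB and TUBB4B fill most of the beta bars, and in parental cells at 1 µM doxorubicin TUBB supplies 31.1% and TUBB3 13.6%.

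The members differed widely in how far they moved across the 15 groups. TUBB3 had the widest range, from 4.38 CPM to 118.9 CPM among single libraries, and its highest group mean was 22.0 times its lowest. TUBB spanned a ratio of 3.68, TUBA1A 3.65, TUBB2B 3.06, TUBB2A 3.00, TUBB6 2.65 and TUBA4A 2.28 between their highest and lowest group means. TUBA1C (1.91), TUBA1B (1.57) and TUBB4B (1.41) were the steadiest. The highest mean lay in parental cells at 1 µM doxorubicin for 5 members, namely TUBB2A, TUBB3, TUBB6, TUBA1A and TUBA4A, and that same group held the lowest mean of TUBB and TUBB4B. Against DMSO, 34.3% of all tested genes were called higher in that group and 41.5% lower. The share of all tested genes with their highest or lowest mean there was not computed, so these counts do not set the tubulins apart.

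**Figure D2:**
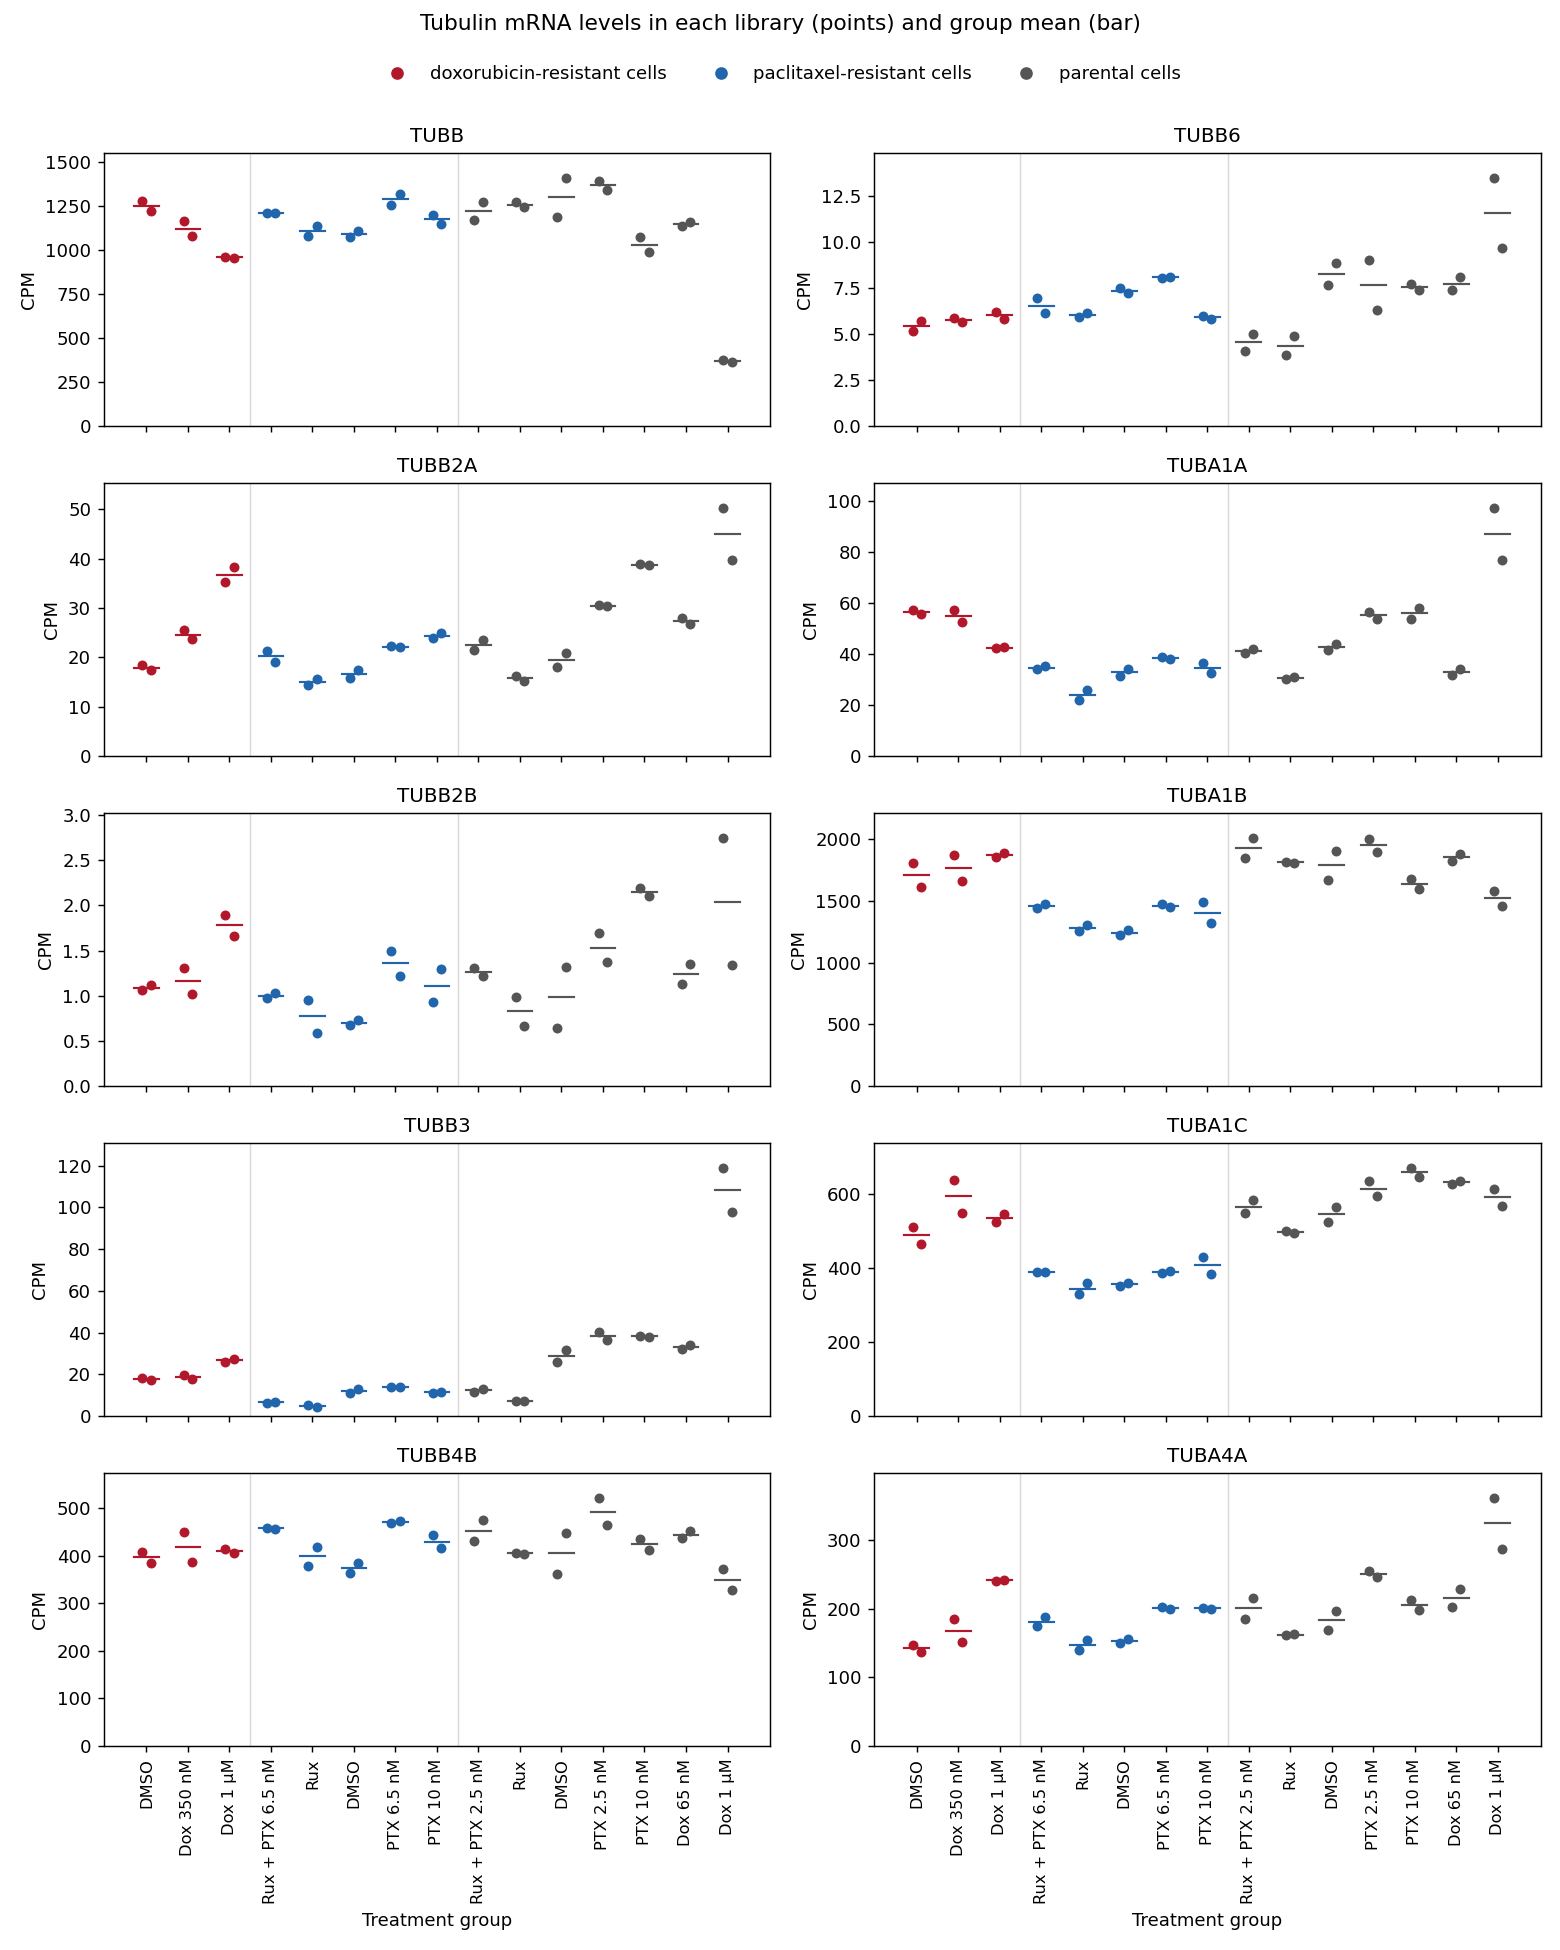
CPM of the 10 tubulin genes in every library (points) with the mean of 2 libraries (bar), for doxorubicin-resistant, paclitaxel-resistant and parental cells by treatment, each panel on its own linear axis from 0. TUBB3 runs from 4.38 to 118.9 CPM, whereas TUBB4B stays between 326.9 and 521.2 CPM.

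Without drug, both resistant lines had less TUBB3 than parental cells, and 5 of the 10 members were lower in the paclitaxel-resistant line. TUBB3 had 18.0 and 17.5 CPM in doxorubicin-resistant cells and 11.004 and 13.1 CPM in paclitaxel-resistant cells, against 26.0 and 31.6 CPM in parental cells. The 3 lines did not overlap. The TUBB3 difference of log2(CPM + 1), the scale of every log2 value here, was -0.66 ± 0.11 (± SE) for doxorubicin-resistant over parental cells (limma, Benjamini-Hochberg adjusted p = 5.68e-05) and -1.19 ± 0.11 for paclitaxel-resistant over parental cells (adjusted p = 9.33e-09). TUBB3 passed the threshold of adjusted p under 0.05 in both comparisons without any 1 of their libraries.

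In doxorubicin-resistant cells, 4 of 10 members were called against parental cells, 1 higher and 3 lower; 27.5% of all tested genes were called, 12.3% higher and 15.2% lower. TUBA1A was the member that rose, with 57.3 and 55.6 CPM in doxorubicin-resistant cells against 41.4 and 44.0 CPM in parental cells, a log2 difference of 0.39 ± 0.096 (adjusted p = 0.00302). TUBB6, a beta-tubulin of many non-neuronal tissues, fell with a log2 difference of -0.52 ± 0.14 (adjusted p = 0.00723), and TUBA4A fell with -0.36 ± 0.11 (adjusted p = 0.0135). Neither TUBB6 nor TUBA4A was called without parental DMSO replicate 2 (adjusted p = 0.0755 and 0.160), TUBB6 was not without doxorubicin-resistant DMSO replicate 1 (0.0719), and TUBA4A was not without replicate 2 of that group (0.119). The abundant TUBB, TUBB4B and TUBA1B had log2 differences of -0.05, -0.02 and -0.06 and were not called. The median of the 10 members was -0.09, beside -0.01 over all tested genes.

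In paclitaxel-resistant cells all 10 members had a log2 difference below 0 against parental cells, and 5 fell by the test; 32.6% of all tested genes were called, 16.3% higher and 16.3% lower. The median was -0.25, beside -0.01 over all tested genes. Besides TUBB3, the fall was largest for the TUBA1 genes. TUBA1C had 353 and 360.0 CPM in paclitaxel-resistant cells against 525.8 and 564.5 CPM in parental cells (log2 difference -0.61 ± 0.078, adjusted p = 1.61e-06). TUBA1B had 1224 and 1260.5 CPM in paclitaxel-resistant cells against 1669 and 1908 CPM in parental cells (-0.52 ± 0.079, adjusted p = 1.65e-05). Libraries of the lines did not overlap for either gene, and summed alpha-tubulin was 1785 ± 36.3 CPM in paclitaxel-resistant cells against 2559.7 ± 219 CPM in parental cells. TUBA1A (-0.37 ± 0.096, adjusted p = 0.00420) and TUBB (-0.25 ± 0.073, adjusted p = 0.0115) fell as well. TUBB was not called without parental DMSO replicate 2 (adjusted p = 0.267) or paclitaxel-resistant DMSO replicate 1 (0.0911), and TUBA1A was not without paclitaxel-resistant DMSO replicate 1 (0.0600).

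Set against each other, doxorubicin-resistant cells were higher than paclitaxel-resistant cells in 5 members and lower in 1; 34% of all tested genes were called, 15.6% higher and 18.4% lower. TUBA1A had the largest difference, 57.3 and 55.6 CPM in doxorubicin-resistant cells against 31.6 and 34.0 CPM in paclitaxel-resistant cells (log2 difference 0.77 ± 0.096, adjusted p = 9.92e-07). TUBB3 (0.53 ± 0.11), TUBA1B (0.46 ± 0.079) and TUBA1C (0.45 ± 0.078) were also higher in doxorubicin-resistant cells. TUBB at 0.20 and TUBB6 at -0.38 passed with adjusted p = 0.0395 and 0.0407, but neither was called when any 1 of the 4 DMSO libraries was left out, doxorubicin-resistant replicate 1 or 2 or paclitaxel-resistant replicate 1 or 2 (adjusted p = 0.0699 to 0.217 for TUBB and 0.0760 to 0.206 for TUBB6), and TUBB6 was not with no filter on low values (0.0622).

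**Figure D3:**
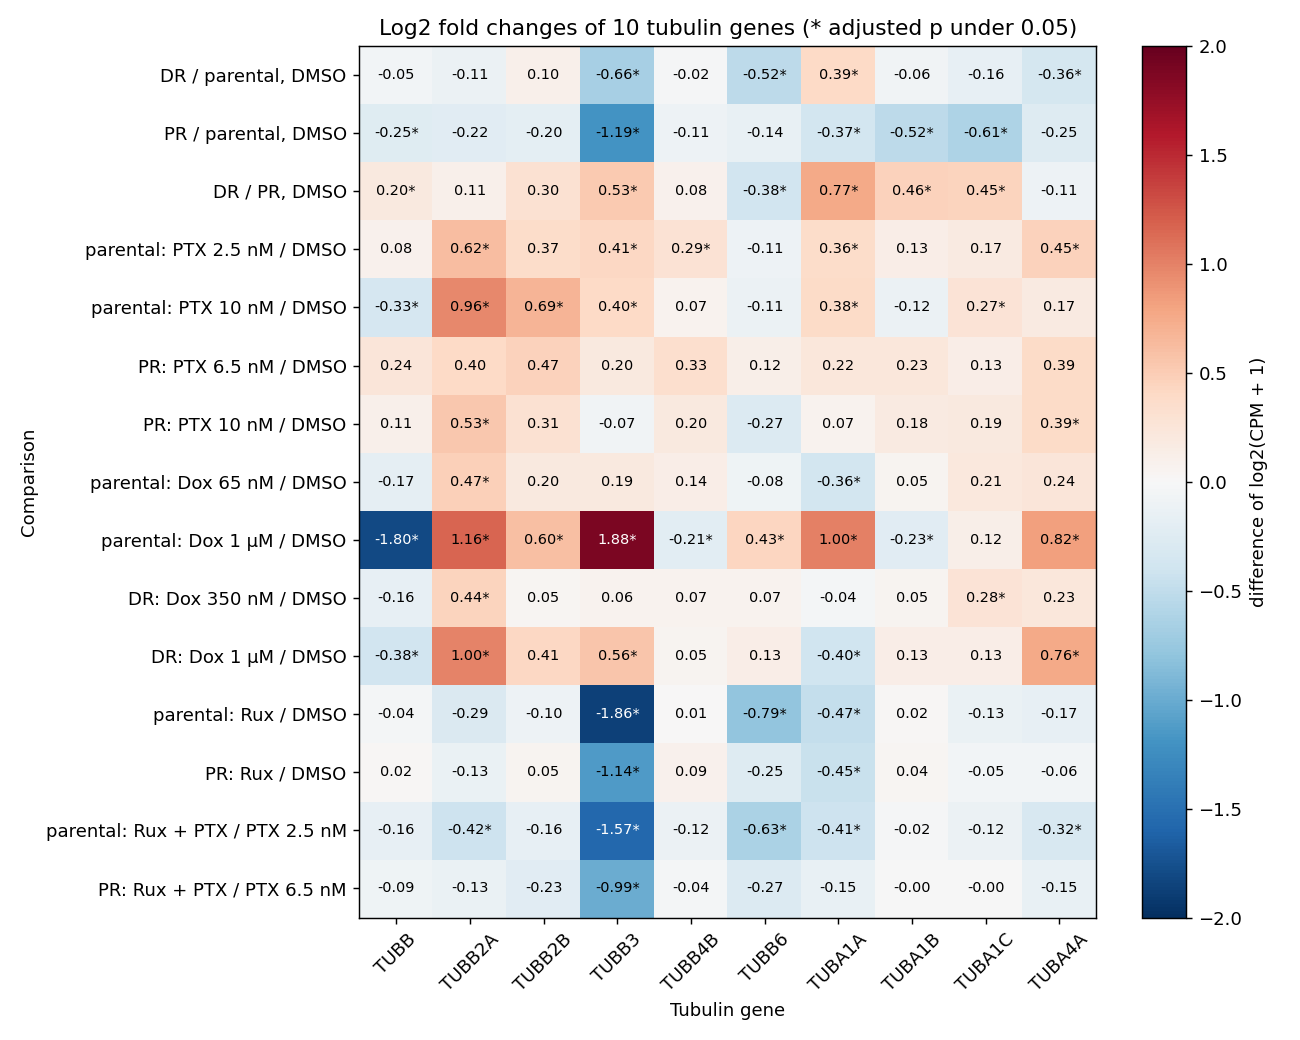
Difference of log2(CPM + 1) of each tubulin gene (columns) in 15 comparisons (rows, first group over second; DR, doxorubicin-resistant; PR, paclitaxel-resistant), with an asterisk where the adjusted p was under 0.05. The TUBB3 column runs from -1.86 in parental cells on ruxolitinib to 1.88 in parental cells at 1 µM doxorubicin, and the TUBB column is at -1.80 in that doxorubicin comparison.

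In parental cells, paclitaxel raised the minor beta-tubulin TUBB2A at both doses, and the abundant TUBB fell at the higher dose. TUBB2A had 18.1 and 21.0 CPM in DMSO, 30.5 and 30.4 CPM at 2.5 nM and 39.0 and 38.6 CPM at 10 nM, and no group overlapped another. Its log2 difference from DMSO was 0.62 ± 0.099 at 2.5 nM (adjusted p = 0.00024) and 0.96 ± 0.099 at 10 nM (adjusted p = 5.92e-08). TUBB had 1190.3 and 1411 CPM in DMSO, 1396 and 1345 CPM at 2.5 nM and 1073 and 988 CPM at 10 nM. Both 10 nM libraries lay below all others, and the log2 difference from DMSO was -0.33 ± 0.073 (adjusted p = 0.000711).

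At 2.5 nM, 5 members rose and none fell in parental cells (26.8% of tested genes called, 9.71% higher and 17.1% lower), with a median of 0.32 beside -0.01 over all tested genes. Besides TUBB2A these were TUBA4A (0.45 ± 0.11), TUBB3 (0.41 ± 0.11), TUBA1A (0.36 ± 0.096) and TUBB4B (0.29 ± 0.093), with adjusted p = 0.00490, 0.01, 0.00988 and 0.0269. These 4 were not called without parental DMSO replicate 1 (adjusted p = 0.127, 0.225, 0.132 and 0.479). Without replicate 1 of the 2.5 nM group TUBB3 (0.0654) and TUBB4B (0.181) were not called, and without its replicate 2 TUBA1A (0.0620) and TUBB4B (0.0622) were not. After correction for transcript GC content and length, TUBB3 (log2 difference 0.21, adjusted p = 0.0820) and TUBB4B (0.09, adjusted p = 0.293) were not called either. With only the lines compared, TUBB3 (adjusted p = 0.0509), TUBA1A (0.0588) and TUBB4B (0.105) were not. TUBB6 was at -0.11.

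At 10 nM, 5 members rose and 1 fell in parental cells (48.2% of tested genes called, 20.1% higher and 28.1% lower). TUBB2B, a close relative of TUBB2A at a far lower level, had 2.19 and 2.11 CPM at 10 nM against 0.648 and 1.32 CPM in DMSO (0.69 ± 0.18, adjusted p = 0.00279). TUBB3 (0.40 ± 0.11), TUBA1A (0.38 ± 0.096) and TUBA1C (0.27 ± 0.078) rose as well. With the GC content and length correction, TUBA1B was also called, as lower (log2 difference -0.20, limma, adjusted p = 0.00130). Without parental DMSO replicate 1, TUBB2B, TUBB3 and TUBA1C were not called (adjusted p = 0.0880, 0.0996 and 0.0645). All 20 genes of a list of G2/M and mitosis genes fell in the same comparison, with a median log2 difference of -0.77. At 2.5 nM 14 of them fell with a median of -0.36, where 17.1% of tested genes were called lower. The part of this shift in the tubulin values was not tested.

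In paclitaxel-resistant cells at 6.5 nM, no member passed the test (limma), although all 10 log2 differences were positive, from 0.12 for TUBB6 to 0.47 for TUBB2B. Only 0.0942% of tested genes were called there, 0.0706% higher and 0.0235% lower. Both treated libraries lay above both DMSO libraries for each of the 10 members. At an unadjusted p under 0.05, 7 members passed, and voom on recovered reads called 0. The shares of all tested genes with libraries apart or at that unadjusted p were not computed, so neither count sets the tubulins apart. With only the lines compared in the fit, or with the GC and length correction, 5 were called, all higher: TUBB, TUBB2A, TUBB4B, TUBA1B and TUBA4A. TUBA4A had 202.4 and 200.2 CPM at 6.5 nM against 150.6 and 156.3 CPM in DMSO (0.39 ± 0.11, adjusted p = 0.248).

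At 10 nM in paclitaxel-resistant cells, TUBB2A and TUBA4A rose and no member fell (13.6% of tested genes called, 6.62% higher and 6.99% lower). TUBB2A had 15.8 and 17.4 CPM in DMSO, 22.3 and 22.1 CPM at 6.5 nM and 23.9 and 24.9 CPM at 10 nM, with a log2 difference from DMSO of 0.53 ± 0.099 at 10 nM (adjusted p = 0.000816). TUBA4A was at 0.39 ± 0.11 (adjusted p = 0.0167) and was not called when any 1 of the 4 libraries was left out, paclitaxel-resistant DMSO replicate 1 or 2 or 10 nM replicate 1 or 2 (adjusted p = 0.0698 to 0.120). TUBB3 had 11.3 and 11.5 CPM at 10 nM against 11.004 and 13.1 CPM in DMSO, a log2 difference of -0.07 with overlapping libraries. With the GC content and length correction, TUBB6 was called lower at 10 nM (-0.33, limma, adjusted p = 0.0433). With only the lines compared, TUBB4B (0.20), TUBA1B (0.18) and TUBA1C (0.19) were called higher (adjusted p = 0.00921, 0.0197 and 0.0154).

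The same 10 nM dose could be compared between the lines. The response of TUBB, 10 nM over DMSO, was 0.11 in paclitaxel-resistant cells and -0.33 in parental cells, a difference of responses of 0.44 ± 0.10 (adjusted p = 0.00850). It was the 1 member called in that test, where 10.8% of tested genes were, 6.87% higher and 3.88% lower. For TUBB2A (-0.43 ± 0.14, adjusted p = 0.0507) and TUBB3 (-0.47 ± 0.16, adjusted p = 0.0532) the difference of responses missed the threshold, and both passed it with median-of-ratios scaling (adjusted p = 0.0347 and 0.0399). With the GC content and length correction 6 members were called. Among them were TUBB2A (-0.39, limma, adjusted p = 0.00804), TUBB3 (-0.44, adjusted p = 0.0101) and TUBA1A (-0.34, adjusted p = 0.0120). Comparing levels at 10 nM, paclitaxel-resistant cells were lower than parental cells in 6 members and higher in 1 (49.7% of tested genes called, 27.3% higher and 22.3% lower). TUBB3 had the largest of these differences, 11.3 and 11.5 CPM in paclitaxel-resistant cells against 38.4 and 38.0 CPM in parental cells (-1.66 ± 0.11, adjusted p = 2.27e-11). TUBA1C (-0.69), TUBA1A (-0.68), TUBB2A (-0.65), TUBB2B (-0.58) and TUBA1B (-0.22) were lower and TUBB (0.19) was higher. TUBB was not called without parental 10 nM replicate 2 (adjusted p = 0.240) or paclitaxel-resistant 10 nM replicate 1 (0.172), or with median-of-ratios scaling (0.0740); TUBB2B was not without the paclitaxel-resistant replicate 1 (0.0994); TUBA1B was not without parental replicate 1 (0.137) or paclitaxel-resistant replicate 2 (0.255).

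At 1 µM doxorubicin, parental cells had far less TUBB than in DMSO, while TUBB3, TUBB2A and TUBA1A rose. TUBB had 1190.3 and 1411 CPM in DMSO, 1137 and 1159.7 CPM at 65 nM and 377.4 and 366.5 CPM at 1 µM. The 1 µM mean was 0.286 of the DMSO mean, a log2 difference of -1.80 ± 0.073 (adjusted p = 4.66e-16). TUBB3 had 26.0 and 31.6 CPM in DMSO, 32.1 and 33.8 CPM at 65 nM and 118.9 and 98.0 CPM at 1 µM. The 1 µM mean of TUBB3 was 3.76 times the DMSO mean (1.88 ± 0.11, adjusted p = 2.88e-13), and both 1 µM libraries lay above every other library of the series.

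At that dose 9 of the 10 members were called in parental cells, 6 higher and 3 lower, in a comparison in which 75.8% of all tested genes were called, 34.3% higher and 41.5% lower. TUBB2A had 50.3 and 39.7 CPM at 1 µM against 18.1 and 21.0 CPM in DMSO (1.16 ± 0.099, adjusted p = 2.39e-10). TUBA1A had 97.2 and 76.9 CPM at 1 µM against 41.4 and 44.0 CPM in DMSO (1.00 ± 0.096, adjusted p = 1.73e-09). TUBA4A, an alpha-tubulin abundant in platelets and muscle, had 362.1 and 287.4 CPM at 1 µM against 168.9 and 197.6 CPM in DMSO (0.82 ± 0.11, adjusted p = 2.58e-07). All 3 of these genes were higher in both treated libraries than in both DMSO libraries. TUBB2B (0.60) and TUBB6 (0.43) were called higher, and neither was without parental DMSO replicate 1 (adjusted p = 0.123 and 0.0845) or 1 µM replicate 1 (0.218 and 0.231). TUBA1B (-0.23, adjusted p = 0.0114) and TUBB4B (-0.21, adjusted p = 0.0494) were called lower, and neither was without parental DMSO replicate 2 (0.187 and 0.641) or 1 µM replicate 2 (0.106 and 0.356), or with median-of-ratios scaling (0.117 and 0.274). TUBB4B was also not called with the replicate number as a block (0.0562), with no filter on low values (0.0593) or with only the lines compared (0.112). TUBA1C, at 0.12, was not called, though it was called higher with that scaling (0.21, adjusted p = 0.0153).

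At 65 nM in parental cells, TUBB2A rose (28.0 and 26.8 CPM at 65 nM against 18.1 and 21.0 CPM in DMSO; 0.47 ± 0.099, adjusted p = 0.00300) and TUBA1A fell (31.7 and 34.3 CPM at 65 nM against 41.4 and 44.0 CPM in DMSO; -0.36 ± 0.096, adjusted p = 0.0166). No other member was called, and 11.2% of tested genes were, 5.21% higher and 5.94% lower. With the GC content and length correction, TUBB was called lower (-0.21, limma, adjusted p = 0.00211) and TUBA1C higher (0.19, adjusted p = 0.00800). TUBB2A was not called without parental DMSO replicate 1 (adjusted p = 0.0770), and TUBA1A was not when any 1 of the 4 libraries was left out, parental DMSO replicate 1 or 2 or 65 nM replicate 1 or 2 (0.0511 to 0.107), or with only the lines compared (0.0956). TUBA1A therefore lay below its DMSO level at 65 nM and above it at 1 µM.

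In doxorubicin-resistant cells at the same 1 µM dose TUBB2A, TUBA4A and TUBB3 rose and TUBB and TUBA1A fell, with smaller responses of TUBB and TUBB3 than in parental cells. TUBB had 1282 and 1223 CPM in DMSO, 1166 and 1081 CPM at 350 nM and 964 and 954 CPM at 1 µM. TUBB3 had 18.0 and 17.5 CPM in DMSO, 19.6 and 17.6 CPM at 350 nM and 25.9 and 27.4 CPM at 1 µM. At 1 µM both genes were clear of the other doses, with log2 differences from DMSO of -0.38 ± 0.073 for TUBB (adjusted p = 0.00022) and 0.56 ± 0.11 for TUBB3 (adjusted p = 0.000293). TUBB2A had 18.4 and 17.4 CPM in DMSO, 25.5 and 23.8 CPM at 350 nM and 35.2 and 38.3 CPM at 1 µM. TUBB2A rose at both doses, by 0.44 ± 0.099 at 350 nM (adjusted p = 0.0119) and by 1.00 ± 0.099 at 1 µM (adjusted p = 4.84e-08).

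At 1 µM, 3 members rose and 2 fell in doxorubicin-resistant cells (39.1% of tested genes called, 19.1% higher and 19.9% lower), and the 5 calls held without each library. TUBA4A had 241.4 and 242.1 CPM at 1 µM against 147.1 and 137.7 CPM in DMSO (0.76 ± 0.11, adjusted p = 5.64e-06). TUBA1A had 42.2 and 42.6 CPM at 1 µM against 57.3 and 55.6 CPM in DMSO (-0.40 ± 0.096, adjusted p = 0.00184), the opposite sign to parental cells. At 350 nM, 2 members rose (3.81% of tested genes called, 2.39% higher and 1.43% lower), TUBB2A and TUBA1C (0.28, adjusted p = 0.0460). Each call was lost without doxorubicin-resistant DMSO replicate 1 (adjusted p = 0.0710 for TUBB2A and 0.0914 for TUBA1C), DMSO replicate 2 (0.134 and 0.382) or 350 nM replicate 1 (0.0944 and 0.308). TUBA1C was also not called with no filter on low values (0.0533), with the replicate number as a block (0.0536) or with only the lines compared (0.0878). With the GC content and length correction at 350 nM, TUBB was called lower (-0.15, limma, adjusted p = 0.0321) and TUBA4A higher (0.26, adjusted p = 0.00153).

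The difference of responses to 1 µM doxorubicin, doxorubicin-resistant minus parental, was called for 4 members, 2 in each direction, where 58.3% of tested genes were called, 33.2% higher and 25.1% lower. It was 1.41 ± 0.10 for TUBB (response -0.38 in doxorubicin-resistant cells and -1.80 in parental cells; adjusted p = 1.42e-10). For TUBA1A it was -1.40 ± 0.14 (-0.40 in doxorubicin-resistant cells and 1.00 in parental cells; adjusted p = 1.02e-08) and for TUBB3 -1.31 ± 0.16 (0.56 and 1.88; adjusted p = 2.03e-07). For TUBA1B it was 0.36 ± 0.11 (0.13 and -0.23; adjusted p = 0.00791), and this call was lost without parental DMSO replicate 2 (0.0553) or doxorubicin-resistant DMSO replicate 2 (0.0583). TUBB2A (-0.16 ± 0.14, adjusted p = 0.332) and TUBA4A (-0.06 ± 0.15, adjusted p = 0.764) were not called.

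As levels at 1 µM, doxorubicin-resistant cells stood above parental cells in 3 members and below in 5 (71.4% of tested genes called, 38.9% higher and 32.5% lower). TUBB had 964 and 954 CPM in doxorubicin-resistant cells against 377.4 and 366.5 CPM in parental cells (1.36 ± 0.073, adjusted p = 1.22e-13). TUBB3 had 25.9 and 27.4 CPM in doxorubicin-resistant cells against 118.9 and 98.0 CPM in parental cells (-1.98 ± 0.11, adjusted p = 2.31e-13). TUBA1A (-1.01), TUBB6 (-0.83), TUBA4A (-0.41) and TUBB2A (-0.28) were lower in doxorubicin-resistant cells and TUBA1B (0.30) and TUBB4B (0.23) higher. Without parental 1 µM replicate 1, TUBA4A (adjusted p = 0.0611) and TUBB2A (0.378) were not called, and without doxorubicin-resistant 1 µM replicate 1 TUBB2A was not (0.131). TUBB4B was not called without parental replicate 2 (0.266) or doxorubicin-resistant replicate 1 (0.106) or 2 (0.0763), with median-of-ratios scaling (0.131) or with only the lines compared (0.0615). TUBA1C was called lower with median-of-ratios scaling (-0.22, adjusted p = 0.0138). Of the 20 G2/M and mitosis genes, 19 were higher in doxorubicin-resistant cells at this dose, with a median log2 difference of 0.60. In parental cells at 1 µM over DMSO 12 of them fell, where 41.5% of all tested genes were called lower. Their median there was -0.30, beside -0.07 over all tested genes. The part of these genes in the tubulin values was not tested. The 10 neuronal markers summed to 3.57 to 4.00 CPM in parental cells at 1 µM doxorubicin against 0.516 to 0.607 CPM in parental cells in DMSO; their part in the TUBB3 values was not tested.

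**Figure D4:**
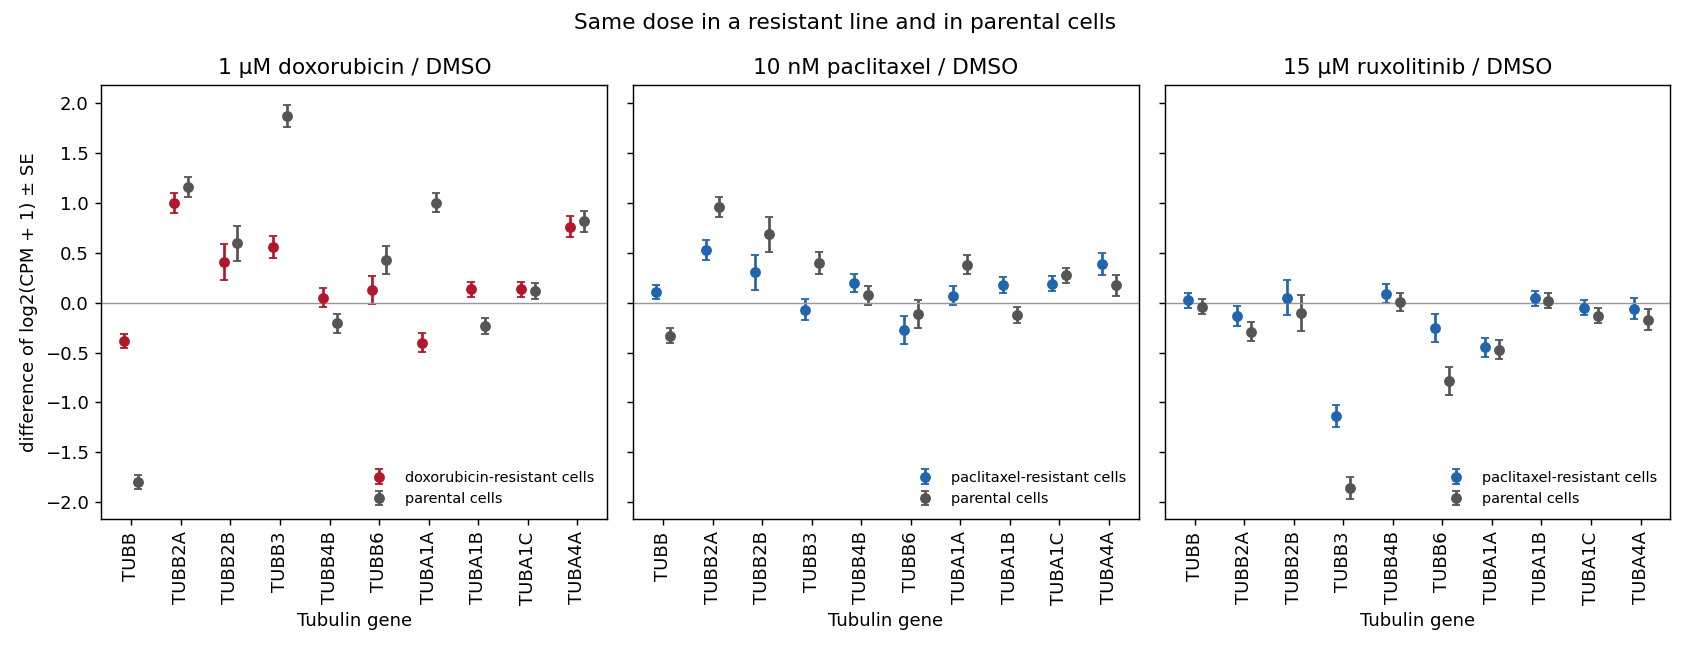
Response of each tubulin gene (difference of log2(CPM + 1), drug over DMSO, ± SE) to 1 µM doxorubicin, 10 nM paclitaxel and 15 µM ruxolitinib, in the resistant line and in parental cells. At 1 µM doxorubicin TUBB is at -0.38 in doxorubicin-resistant and -1.80 in parental cells, and under ruxolitinib TUBB3 is the lowest gene in both lines.

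Ruxolitinib lowered TUBB3 in both lines that received it and left the abundant isotypes within their spread. TUBB3 had 5.48 and 4.38 CPM in paclitaxel-resistant cells on 15 µM ruxolitinib, against 11.004 and 13.1 CPM in paclitaxel-resistant cells in DMSO (-1.14 ± 0.11, adjusted p = 3.93e-07). It had 7.12 and 7.23 CPM in parental cells on ruxolitinib, against 26.0 and 31.6 CPM in parental cells in DMSO (-1.86 ± 0.11, adjusted p = 4.16e-11). Treated and DMSO libraries were apart in both lines; the treated mean was 0.409 of the DMSO mean in paclitaxel-resistant cells and 0.249 in parental cells. Both calls held without each library of the groups compared. TUBB was at 0.02 and -0.04, TUBB4B at 0.09 and 0.01 and TUBA1B at 0.04 and 0.02 in paclitaxel-resistant and parental cells, and none of these was called.

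In paclitaxel-resistant cells 2 members fell under ruxolitinib and none rose (6.92% of tested genes called, 2.86% higher and 4.06% lower); in parental cells 3 fell and none rose (13.2%, 5.51% higher and 7.71% lower). TUBA1A fell in both lines. It had 21.8 and 25.9 CPM in treated against 31.6 and 34.0 CPM in DMSO-treated paclitaxel-resistant cells (-0.45 ± 0.096, adjusted p = 0.00447), and 30.03 and 30.9 CPM in treated against 41.4 and 44.0 CPM in DMSO-treated parental cells (-0.47 ± 0.096, adjusted p = 0.00148). In paclitaxel-resistant cells the TUBA1A call was lost without DMSO replicate 2 (adjusted p = 0.0829) or ruxolitinib replicate 1 (0.134). TUBB6 fell in parental cells, with 3.87 and 4.90 CPM on ruxolitinib against 7.65 and 8.86 CPM in DMSO (-0.79 ± 0.14, adjusted p = 0.000459), and was at -0.25 (adjusted p = 0.370) in paclitaxel-resistant cells. With the GC content and length correction, TUBB2A (-0.27, limma, adjusted p = 0.00685) and TUBA4A (-0.16, adjusted p = 0.0262) were also called lower in parental cells.

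The response of TUBB3 to ruxolitinib was 0.72 ± 0.16 less negative in paclitaxel-resistant than in parental cells (adjusted p = 0.0331), the 1 member among the 0.408% of tested genes called for that difference, 0.298% higher and 0.11% lower. That call was lost without parental DMSO replicate 2 (adjusted p = 0.230), parental ruxolitinib replicate 1 (0.156) or 2 (0.127), paclitaxel-resistant DMSO replicate 1 (0.310) or paclitaxel-resistant ruxolitinib replicate 1 (0.25), and also with 0.25 CPM as the pseudocount (0.0602), all genes above 0 tested (0.0555), only the lines compared (0.0662) or voom on recovered reads (0.251).

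Adding ruxolitinib to paclitaxel also lowered TUBB3 relative to the same dose of paclitaxel alone. TUBB3 had 6.45 and 6.62 CPM in paclitaxel-resistant cells on the combination against 14.1 and 13.8 CPM on 6.5 nM paclitaxel (-0.99 ± 0.11, adjusted p = 6.00e-06), and 11.7 and 12.9 CPM in parental cells on the combination against 40.4 and 36.6 CPM on 2.5 nM paclitaxel (-1.57 ± 0.11, adjusted p = 1.18e-09). The combination libraries lay below the paclitaxel libraries in both lines. It was the 1 member called in paclitaxel-resistant cells (3.28% of tested genes called, 1.16% higher and 2.12% lower), while 5 members fell and none rose in parental cells (27.9%, 15.1% higher and 12.9% lower). TUBB6 (-0.63 ± 0.14), TUBB2A (-0.42 ± 0.099), TUBA1A (-0.41 ± 0.096) and TUBA4A (-0.32 ± 0.11) were the others, with adjusted p = 0.00299, 0.00390, 0.00356 and 0.0290. None of these 4 was called without parental combination replicate 1 (adjusted p = 0.0828, 0.0847, 0.0586 and 0.341). TUBB6 (0.0634) and TUBA4A (0.104) were not called without parental 2.5 nM replicate 1, and TUBA4A was not without its replicate 2 (0.107) or with only the lines compared (0.0993). Of the G2/M and mitosis genes, 14 rose in this parental comparison, with a median log2 difference of 0.38, and the part of that shift was not tested.

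Ranked by group mean, TUBB3 was highest in parental cells at 1 µM doxorubicin, followed by parental cells at 2.5 nM and 10 nM paclitaxel, at 65 nM doxorubicin and in DMSO. Doxorubicin-resistant cells at 1 µM, 350 nM and in DMSO came next, then paclitaxel-resistant cells at 6.5 nM paclitaxel, parental cells on the combination, and paclitaxel-resistant cells in DMSO and at 10 nM paclitaxel. The lowest means were those of parental cells on ruxolitinib and of paclitaxel-resistant cells on the combination and on ruxolitinib. Of the 14 neighbouring pairs in that order, 9 had libraries that did not overlap. The 5 that overlapped were both parental paclitaxel doses, parental DMSO with doxorubicin-resistant 1 µM, doxorubicin-resistant 350 nM with DMSO, and paclitaxel-resistant DMSO with its neighbours on either side. For TUBB only 4 of the 14 neighbouring pairs were apart, for TUBB2A 8, for TUBA1A 7, for TUBA4A 5, and for TUBB4B and TUBB2B 1 each.

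The pattern over the 15 group means was compared on the log2 scale, as a description; these means share libraries of a group, controls and the drugs. TUBB2A ran most closely with TUBB2B (Pearson's r = 0.95), the pair that shares the most sequence, then with TUBA4A (0.88) and TUBB3 (0.83), both of which share little sequence with it. TUBB3 ran with TUBA1A (0.82), and TUBA1B with TUBA1C (0.82). TUBB had r = -0.61 with TUBB3 and 0.66 with TUBB4B. The mean log2 value of TUBB was 8.54 in parental cells at 1 µM doxorubicin and 9.91 to 10.42 in every other group. TUBB3 was at 6.77 in that group and at most 5.30 in any other, so this group weighs heavily in r. Values of r without that group were not computed.

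Among 6781 genes that moved at least as far as 1 on the log2 scale, those most like TUBB3 over the 15 groups included HYI (0.96) and APOL1 (0.96). For TUBB they were SEMA4D (0.98), TANC1 (0.98) and ADAP1 (0.98), and for TUBB2A IFIT2 (0.97), ASB6 (0.95) and IVD (0.95). The r values of TUBB weigh heavily on its low mean in parental cells at 1 µM doxorubicin. In that group 41.5% of all tested genes were called lower than in DMSO. TUBA4A ran closest to CIITA (0.96), the master regulator of MHC class II genes, then to the interferon-inducible GBP1 (0.92) and APOL3 (0.91). TUBA1A was closest to ZSCAN25 (0.90), ZNF207 (0.90) and FIZ1 (0.90), and TUBB6 to PSMB8 (0.86), SLC39A1 (0.86) and HDX (0.86).

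Promoter sequence was read for all 10 members from RefSeq (GRCh38.p14), from 250 bases before to 50 bases after the listed start. The windows of TUBB and TUBB2A are shown because these genes moved in opposite directions at 1 µM doxorubicin in both lines; capitals mark the CCAAT motif in TUBB (chr6:30720102-30720401, plus strand) and the TATAAA motif in TUBB2A (chr6:3157495-3157794, minus strand).
TUBB: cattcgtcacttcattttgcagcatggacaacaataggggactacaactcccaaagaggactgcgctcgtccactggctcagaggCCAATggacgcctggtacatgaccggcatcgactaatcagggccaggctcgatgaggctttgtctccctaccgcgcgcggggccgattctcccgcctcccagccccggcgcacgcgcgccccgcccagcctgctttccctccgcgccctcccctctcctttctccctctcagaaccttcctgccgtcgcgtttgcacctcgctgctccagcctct
TUBB2A: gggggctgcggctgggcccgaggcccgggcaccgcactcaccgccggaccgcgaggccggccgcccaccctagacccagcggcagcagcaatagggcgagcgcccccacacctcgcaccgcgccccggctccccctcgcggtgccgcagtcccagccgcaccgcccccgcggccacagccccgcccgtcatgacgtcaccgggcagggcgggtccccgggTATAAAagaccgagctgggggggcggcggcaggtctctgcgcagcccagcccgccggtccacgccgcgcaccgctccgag

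Both strands were searched. CCAAT, the site read by NF-Y, occurred in the windows of 5 of 10 members (TUBB, TUBB2B, TUBB4B, TUBA1A and TUBA1C) and in 34.6% of 35116 RefSeq promoters of the same length. TATAAA occurred in 1 member, TUBB2A, and in 11.5% of promoters. GGGCGG occurred in 5 members, with 5 matches in TUBB2A and 1 in TUBB, and in 45% of promoters, and TTTGAA in 2 members, TUBB4B and TUBA1C, and in 15.2%. TTCNNNGAA, the core of STAT sites, occurred in none of the 10 windows, TUBB3 included, and in 7.66% of promoters; the listed TUBB3 start lies near the beginning of its locus, and other starts were not searched. None of these motifs contains another.

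The machinery that folds tubulin and controls its mRNA was measured in full, with all 24 list genes tested. At 1 µM doxorubicin 7 rose and 11 fell in parental cells (median -0.18, beside -0.07 over all tested genes), where 34.3% of all tested genes were called higher and 41.5% lower. In doxorubicin-resistant cells 1 rose and 5 fell (median -0.07, beside 0.00), where 19.1% of all tested genes were called higher and 19.9% lower. TTC5, the factor that recognises nascent tubulin, fell in doxorubicin-resistant cells (-0.87 ± 0.11, adjusted p = 1.86e-06) and in parental cells (-1.86 ± 0.11, adjusted p = 4.55e-13). CNOT11, the CCR4-NOT subunit that SCAPER recruits, was at -0.54 and -0.80 in the same lines, both called, and SCAPER fell in parental cells (-0.61) and was at -0.00 in doxorubicin-resistant cells, where it was not called. The folding cofactors split in parental cells: TBCC was at 1.19, while TBCD (-1.07), TBCE (-0.74), TBCB (-0.60) and TBCA (-0.51) fell. At 10 nM paclitaxel in parental cells 3 list genes rose and 9 fell (20.1% of all tested genes called higher and 28.1% lower), among them TTC5 (-0.41), SCAPER (-0.41) and CNOT11 (-0.36); in paclitaxel-resistant cells at 10 nM none was called.

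Of 20 genes for tubulin modification in the table, 16 were tested. In doxorubicin-resistant over parental cells in DMSO 4 rose and 1 fell (12.3% of all tested genes called higher and 15.2% lower), and in paclitaxel-resistant over parental cells 5 rose and 1 fell (16.3% and 16.3%). HDAC6, the deacetylase of alpha-tubulin, was higher in both (0.63 and 0.51), as was the tubulin tyrosine ligase TTL (0.24 and 0.23), and TTLL12 was lower (-0.78 and -0.29). Under ruxolitinib 2 rose in paclitaxel-resistant cells, the deacetylase SIRT2 (0.40) and HDAC6 (0.47), where 2.86% of all tested genes were called higher. In parental cells on ruxolitinib 4 rose and none fell, SIRT2 (0.47) among them, where 5.51% were called higher and 7.71% lower. At 1 µM doxorubicin in parental cells 6 rose and 8 fell (34.3% of all tested genes called higher and 41.5% lower), with the acetyltransferase ATAT1 at 1.00 and the detyrosinating enzyme VASH2 at -1.71.

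Of 12 other tubulin genes in the table, 5 were tested. None of the 5 was called in either resistant line against parental cells in DMSO. Of all tested genes, 27.5% were called there in doxorubicin-resistant and 32.6% in paclitaxel-resistant cells, so with 5 genes this sets nothing apart. At 1 µM doxorubicin TUBE1, the centriolar epsilon-tubulin, fell in doxorubicin-resistant (-1.16) and parental cells (-1.13). TUBG1, the main gamma-tubulin of centrosomes, fell in parental cells at 1 µM doxorubicin (-0.39) and at 10 nM paclitaxel (-0.37). Of the 5, 1 rose and 2 fell in parental cells at 1 µM doxorubicin (34.3% of all tested genes called higher, 41.5% lower). In doxorubicin-resistant cells at that dose 0 rose and 2 fell (19.1% higher, 19.9% lower). In parental cells at 10 nM paclitaxel 2 rose and 2 fell (20.1% higher, 28.1% lower).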

How the data were processed

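Poly-A RNA libraries were made with the Kapa mRNA HyperPrep kit, per the labels' protocols. Per the submitters' processing notes, STAR 2.5.1b, GRCh37/hg19 and edgeR were used; which tool counted reads, and on what annotation, is not given in the sources used here. Values deposited by the authors were TMM-scaled log2(CPM + 1) for 20114 genes in 30 libraries. In every library 100% of values came back as whole reads within 0.01, which gave the depths and, in an alternative, voom's input.

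A limma 3.58.1 model (R 4.3.3, intensity trend, robust) of the 15 groups was fitted to the deposited values of 12743 genes with at least 1 CPM in at least 2 libraries, with 15 residual degrees of freedom. There were 20 comparisons, 3 of them differences of responses; a call is a Benjamini-Hochberg adjusted p under 0.05 over all tested genes. CPM was taken back from the log values with Python 3.11.15 and pandas 2.3.3. In data simulated for the doxorubicin-resistant over parental comparison on 12743 genes, the model recovered 52 of 67 genes changed 1.5-fold and 67 of 67 changed 2-fold, with 10 false calls. The simulated libraries were independent, without drift along GC content. Only 200 genes were changed, all with a mean log2 value over 2, a level that TUBB2B did not reach. These figures are therefore not the error rate of the calls reported here.

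The members and lists were chosen with earlier results of these data known. All 10 members are described; list genes are named mostly where called, and neighbours are the 3 genes with the highest Pearson's r for each member spanning at least 1 on the log2 scale, of which 1 is not reported here. Alternatives were a pseudocount of 0.25, no filter, median-of-ratios scaling, a replicate block, only the lines compared, GC content and length correction (spline with 4 degrees of freedom; values for 99.4% of tested genes), voom, and leaving out each library.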

Additional observations from a re-analysis of the deposited data

Results flagged for a closer look

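For 6 results the response to a drug differed between a resistant line and parental cells, each tested as a difference of log2 responses (limma, Benjamini-Hochberg adjusted p). At 1 µM doxorubicin, doxorubicin-resistant minus parental, it was 1.41 for TUBB, -1.40 for TUBA1A, -1.31 for TUBB3 and 0.36 for TUBA1B. TUBA1A had responses of opposite sign, -0.40 in doxorubicin-resistant and 1.00 in parental cells. At 10 nM paclitaxel, paclitaxel-resistant minus parental, it was 0.44 for TUBB. At 15 µM ruxolitinib, paclitaxel-resistant minus parental, it was 0.72 for TUBB3. Of all tested genes, 58.3% were called for the doxorubicin difference, 10.8% for the paclitaxel difference and 0.408% for the ruxolitinib difference. The TUBB3 call for ruxolitinib and the TUBA1B call for doxorubicin did not hold under all the alternatives given above. Each group had 2 libraries, and the parental DMSO libraries, which enter all 3 tests, differed along GC content.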

How the results depend on the processing

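Of 200 member results, 78 were called, and no called one changed sign under any alternative. The share of all tested genes called ran from 0.0942% to 75.8% over the same 20 comparisons, so the 78 is not a result about tubulins. Counts of members called moved by over 1.5 times as follows. With only the lines compared, parental 2.5 nM paclitaxel gave 2, paclitaxel-resistant 6.5 nM and 10 nM paclitaxel 5 each, parental 65 nM and doxorubicin-resistant 350 nM doxorubicin 1 each, and the ruxolitinib difference of responses 0. With the GC content and length correction, alone or with the replicate block, paclitaxel-resistant 6.5 nM paclitaxel gave 5, parental 65 nM and doxorubicin-resistant 350 nM doxorubicin 4 each, parental ruxolitinib 5, and the paclitaxel difference of responses 6. That difference gave 3 with median-of-ratios scaling, and the ruxolitinib difference gave 0 with a pseudocount of 0.25, no filter or voom. Doxorubicin-resistant 350 nM doxorubicin gave 1 with no filter or the replicate block. The cause was not tested.

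Leaving out each library in turn gave 2 to 4 calls for doxorubicin-resistant and 3 to 8 for paclitaxel-resistant over parental cells in DMSO, and 4 in each case between the resistant lines. Parental paclitaxel gave 1 to 7 at 2.5 nM and 3 to 6 at 10 nM, paclitaxel-resistant 0 at 6.5 nM and 1 at 10 nM. Parental doxorubicin gave 1 to 4 at 65 nM and 7 at 1 µM, doxorubicin-resistant 0 to 2 at 350 nM and 5 at 1 µM. Ruxolitinib gave 1 to 2 in paclitaxel-resistant and 3 to 4 in parental cells, and its combination 1 and 1 to 5. Levels between lines gave 5 to 6 at 10 nM paclitaxel and 6 to 8 at 1 µM doxorubicin; the differences of responses gave 1 to 3 for paclitaxel, 3 to 6 for doxorubicin and 0 to 1 for ruxolitinib.

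The differences of replicate 2 minus replicate 1 were correlated between groups (105 pairs, median r = 0.0016, range -0.689 to 0.650, 30 over 0.1). In several groups these differences followed GC content, with either sign, so whether the numbers pair libraries cannot be told from this median. Under the replicate block 198 of 200 member results kept their call and 2 lost it. These were TUBB4B in parental cells at 1 µM doxorubicin (limma, adjusted p = 0.0562) and TUBA1C in doxorubicin-resistant cells at 350 nM (0.0536). With 2 libraries a group, TUBB2B near 1 CPM and TUBB6 are the least precise members.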
